A study of Mus musculus with 8 samples.

Results

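Ribosome biogenesis, the assembly of ribosomes in the nucleolus, was examined through 50 listed genes in mouse heart. The members were listed by symbol for their function, and no measured value enters the rule. The list was, however, chosen with earlier results of these data known, so its shares of called genes are descriptions and not tests. Each of the 50 symbols matched 1 of the 55471 gene rows, and all 50 passed the filter on low counts. RNA sequencing counts came from hearts of 4 WT and 4 TAZG197V mice at an age of 14 weeks. TAZG197V mice are hemizygous males in which CRISPR/Cas9 editing changed a glycine of Tafazzin to valine, a change known from a patient with Barth syndrome. Tafazzin is the X-linked mitochondrial enzyme that remodels cardiolipin, and per the study the mutant protein was not detectable in heart. Founders were made on C57BL/6N and crossed with C57BL6/J, and WT mice carry unedited Taz. The comparison asks which heart transcripts differ when Taz carries this germline change. A small piece of each heart was minced, so each value is an average over the cell types in that piece. Fewer cells of a type and less RNA per cell cannot be told apart in such samples.

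The nucleolus forms around the ribosomal RNA genes, which RNA polymerase I (Pol I) transcribes into a long precursor. Small nucleolar ribonucleoproteins (snoRNPs) then guide methylation (box C/D class) and pseudouridylation (box H/ACA class) of that precursor, while assembly factors, helicases and GTPases fold, cut and export the small and large subunits. The transcription factor Myc is known as a regulator of many of these genes through the E-box, and growth of heart muscle is known to involve more ribosome production.

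Transcripts of nucleolar factors were higher in TAZG197V hearts, with called genes in each of the 6 role groups described here. In TAZG197V, 44 of the 50 members were called higher and none lower (0), where 18.5% of the 15084 genes tested were called higher and 15.1% lower. A call required an edgeR adjusted p under 0.05, a larger-to-smaller fitted ratio of the genotypes more than 15% above 1 and a mean count of at least 50 after scaling. All 50 members reached that mean count, and among the 12357 genes that did so 22.5% were called higher. At an unadjusted edgeR p under 0.05 there were 45 members with a positive and 0 with a negative change, and DESeq2 called 41 higher and 0 lower. The median log2 fold change of the members was 0.51, against -0.01 over all genes tested. The change was moderate for most genes: 18 of the 44 reached 1.5-fold and 4 reached 2-fold. Those 4 were Myc, Nhp2, Rrp12 and Gnl3. In 42 members the 4 TAZG197V libraries all lay above the 4 WT libraries, which held for 19.3% of all genes tested, and the opposite order held for 0 members. Levels are given throughout as CPM, read counts relative to the TMM-scaled library size, and libraries are listed in the order 1 to 4 of each genotype. Gene positions are on mouse genome build mm10.

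**Figure D1:**
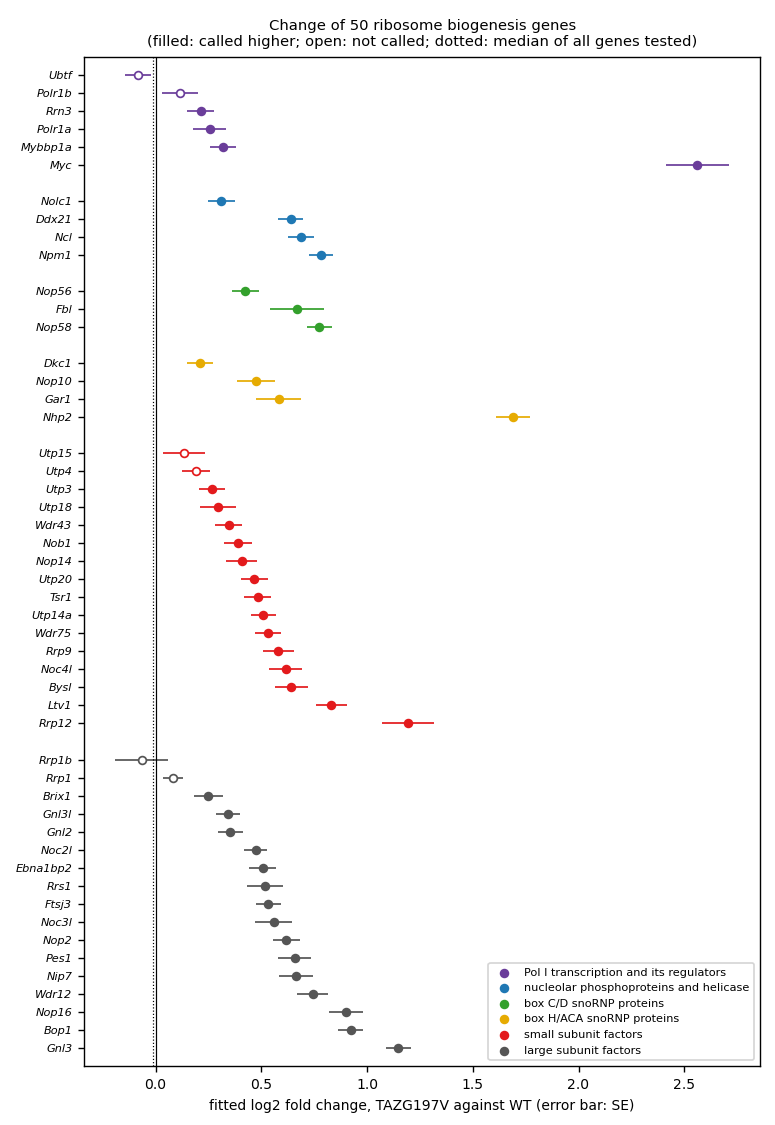
Fitted log2 fold change of each of the 50 members in TAZG197V against WT hearts (x axis) with its standard error, grouped by role. Filled points mark the 44 members called higher, and the 6 open points (Ubtf, Polr1b, Utp15, Utp4, Rrp1b and Rrp1) lie between -0.08 and 0.19, where the dotted median of all genes tested is -0.01.

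The rise was seen in each mutant animal. The summed level of the 50 members was 1543, 1554, 1550 and 1477 CPM in WT and 2291, 2245, 2137 and 2044 CPM in TAZG197V, with means of 1531 ± 36.5 and 2179 ± 110.7 (SD, n = 4 each). Leaving out Ncl and Npm1 gave 1240 ± 31.9 and 1709 ± 97.9 CPM. Between 47 and 50 members exceeded their WT mean in each TAZG197V library, against 30 to 33 in WT 1 to 3 and 12 in WT 4. TAZG197V 4 had the smallest mean rise over the members (0.44 on the log2 scale) and TAZG197V 1 the largest (0.63). Libraries 1 and 2 of each genotype carry lane 7 in their read file names and libraries 3 and 4 lane 8. Within lane 7 the median log2 ratio of the means was 0.54 and within lane 8 it was 0.45, and in each lane 48 of 50 members were higher in TAZG197V.

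**Figure D2:**
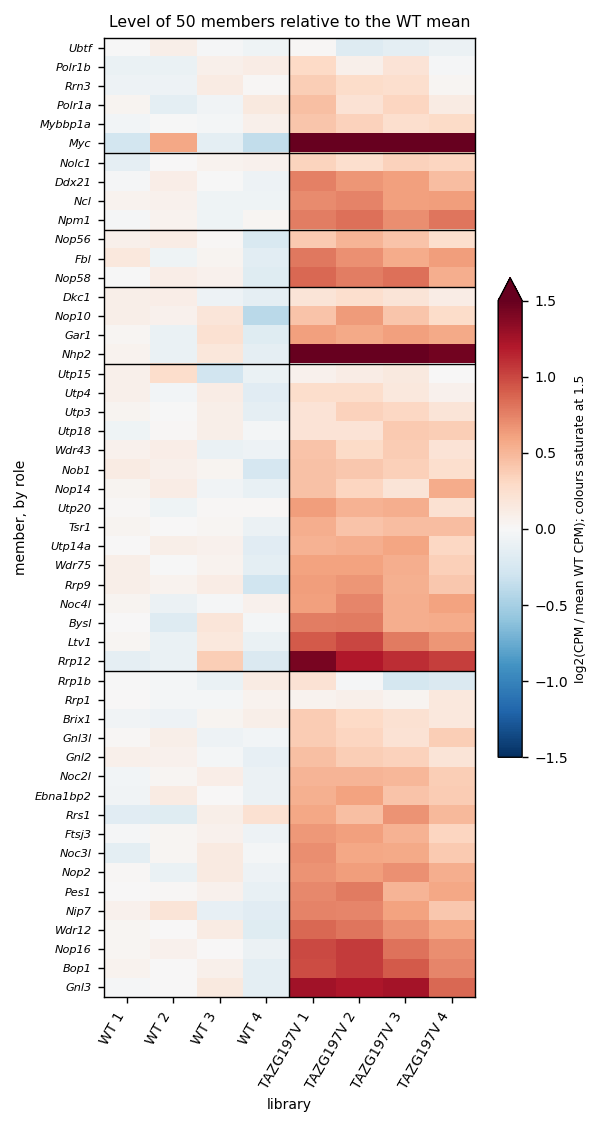
Heat map of log2(CPM / mean WT CPM) for 50 members (rows, by role) in 8 libraries (columns), with colours saturating at 1.5. The TAZG197V columns are higher in nearly every row, WT 4 is the lowest WT column with 12 members above the WT mean, and Ubtf, Rrp1 and Rrp1b stay near 0.

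Total counts per library were 23055689 to 36301031, and the Taz transcript itself was present in every library. It was at 58.7 to 63.8 CPM in WT and 44.3 to 50.4 CPM in TAZG197V (log2 fold change -0.37, edgeR adjusted p = 0.00124). The edited base cannot be read from gene counts, so these values do not check the labels. The ventricular muscle markers Myl2, Myl3, Myh6, Actc1, Tnnt2 and Tnni3 summed to 55230 to 63730 CPM in WT and 48190 to 51570 CPM in TAZG197V, so all libraries had the profile of heart muscle. Both number 4 libraries stood apart. WT 4 held 5.35% of its counts in 6 red cell genes, against 0.023% to 0.102% elsewhere, and WT 4 and TAZG197V 4 had 189.6 and 300.5 CPM of 6 brain markers, against 46.6 to 92.7 CPM in the others. Without both number 4 libraries 42 members were called higher and 0 lower.

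Among Pol I and its regulators the change was uneven. Myc rose most of all members, the catalytic subunit and 2 accessory factors rose slightly, and Ubtf and Polr1b were not called. This made 4 of 6 called higher, with a median log2 fold change of 0.23, the lowest of the role groups. Myc (ENSMUSG00000022346, chromosome 15, 61985391 to 61990374, plus strand) was at 3.38, 6.07, 3.69 and 3.17 CPM in WT and 26.6, 24.0, 18.6 and 18.3 CPM in TAZG197V. The counts behind these values were 71 to 221 in WT and 499 to 889 in TAZG197V. Every mutant library lay above every WT library, with WT 2 the highest of the WT hearts. This was a log2 fold change of 2.56 ± 0.150 (SE), or 5.91-fold (edgeR adjusted p = 1.38e-05).

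Mybbp1a encodes a Myb-binding protein of the nucleolus that is part of pre-ribosomal complexes (ENSMUSG00000040463, chromosome 11, 72441355 to 72451768, plus strand). Its level was 68.0, 69.7, 68.5 and 74.1 CPM in WT and 93.3, 89.2, 83.5 and 85.3 CPM in TAZG197V, so the groups did not overlap. The log2 fold change was 0.32 ± 0.0607 (SE, edgeR adjusted p = 0.00413). Polr1a, the largest subunit of Pol I (ENSMUSG00000049553, chromosome 6, 71909053 to 71984935, plus strand), was at 69.4, 61.2, 64.9 and 74.7 CPM in WT and 92.1, 78.5, 84.3 and 73.5 CPM in TAZG197V. Here WT 4 lay above TAZG197V 4, so the groups overlapped. Its log2 fold change of 0.26 ± 0.0792 passed narrowly (edgeR adjusted p = 0.0340). Polr1a lost its call without WT 1, WT 2, TAZG197V 1, TAZG197V 2 or TAZG197V 3 (adjusted p from 0.0728 to 0.107), and over 17 alternative fits the adjusted p ranged from 0.00474 to 0.107. The call was also lost with sequencing lane in place of surrogate variables (adjusted p = 0.0503). Rrn3, which brings Pol I to the promoter, also overlapped between genotypes and had a log2 fold change of 0.21 ± 0.0634 (adjusted p = 0.0288). It lost its call without any of those same 5 libraries (adjusted p from 0.066 to 0.119 there, and from 0.00757 to 0.119 over the 17 fits), and also with lane in place of surrogate variables (0.0726) or with neither (0.0567). Polr1b, the other large subunit, averaged 15.8 ± 1.19 CPM in WT hearts and 17.4 ± 1.68 CPM in mutant hearts (SD, n = 4 each), with an adjusted p of 0.300. Ubtf, the architectural factor of the ribosomal RNA genes, was at 72.9, 77.6, 72.5 and 69.8 CPM in WT and 74.0, 63.9, 66.3 and 69.0 CPM in TAZG197V. This gave a log2 fold change of -0.08 ± 0.0610 (adjusted p = 0.311).

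**Figure D3:**
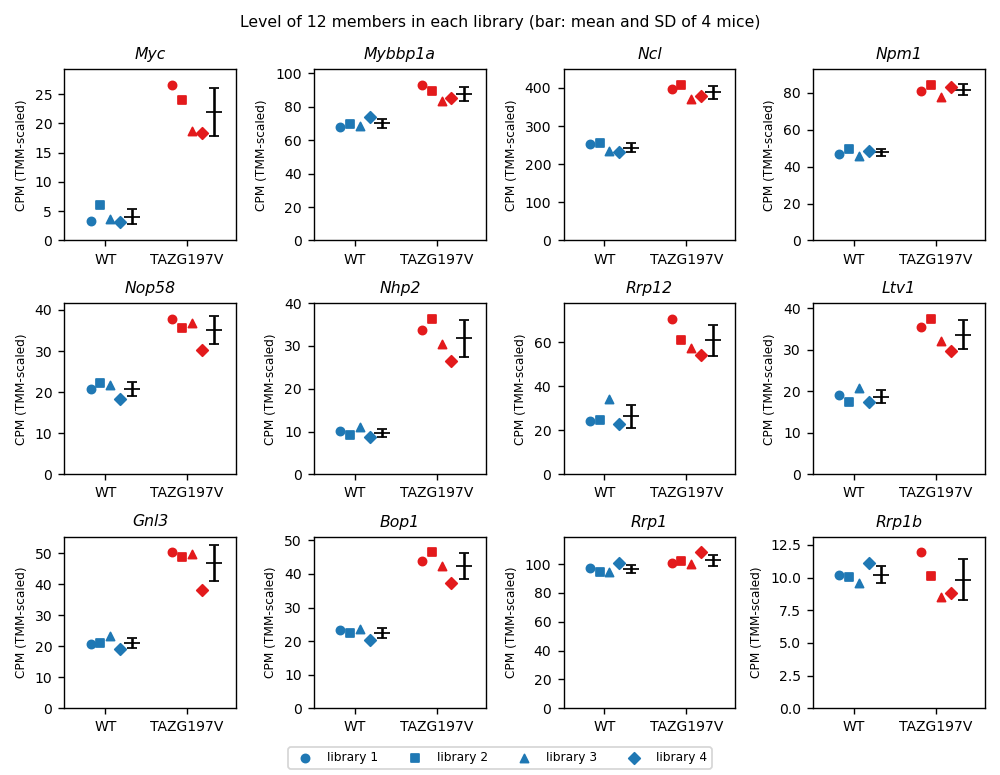
Level of 12 members in CPM (y axis, from 0) in each of 4 WT and 4 TAZG197V libraries, with the mean and SD of each genotype and marker shape giving the library number. The genotypes are separate for Myc, Mybbp1a, Ncl, Npm1, Nop58, Nhp2, Rrp12, Ltv1, Gnl3 and Bop1, and overlap for Rrp1 and Rrp1b.

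All 4 genes in the group of nucleolar phosphoproteins and a helicase were called higher. They encode the phosphoproteins nucleolin (Ncl), nucleophosmin (Npm1) and Nolc1, which acts in snoRNP traffic, and the RNA helicase Ddx21. Their median log2 fold change was 0.66 and their summed level went from 376.7 ± 14.4 to 593.6 ± 23.0 CPM. Npm1 (ENSMUSG00000057113, chromosome 11, 33152287 to 33163206, minus strand) was at 47.1, 49.7, 45.6 and 48.6 CPM in WT and 81.2, 84.4, 77.6 and 83.4 CPM in TAZG197V. The spread within each genotype was small beside the gap, and the log2 fold change was 0.78 ± 0.0549 (edgeR adjusted p = 3.45e-05). Npm1 has processed copies in the genome, and 24.3% of its 50-base windows were also found in another annotated gene, so its count is uncertain to that extent. Ncl (ENSMUSG00000026234, chromosome 1, 86344719 to 86359400, minus strand) had the highest CPM of the members, with 253, 255, 234 and 233 in WT hearts and 398, 408, 372 and 378 in mutant hearts. The mutant values formed a group of their own above the WT values. The fitted log2 change was 0.69 ± 0.0608 (adjusted p = 0.000103). Ddx21 (ENSMUSG00000020075, chromosome 10, 62580251 to 62602281, minus strand) was at 55.8, 60.5, 56.4 and 53.4 CPM in WT and 95.6, 89.1, 86.6 and 77.8 CPM in TAZG197V, with TAZG197V 4 the lowest mutant heart. On the log2 scale the change was 0.64 ± 0.0598, and that of Nolc1 was 0.31 ± 0.0655.

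The snoRNP proteins rose in both classes, 3 of 3 in box C/D and 4 of 4 in box H/ACA. In the box C/D class, Nop58 and Nop56 form the scaffold and Fbl (fibrillarin) is the methyltransferase. Nop58 (ENSMUSG00000026020, chromosome 1, 59684971 to 59719044, plus strand) was at 20.8, 22.3, 21.8 and 18.3 CPM in WT and 37.9, 35.5, 36.8 and 30.4 CPM in TAZG197V. The groups were separate, with a log2 fold change of 0.77 ± 0.0590 (edgeR adjusted p = 5.04e-05). Fbl (ENSMUSG00000046865, chromosome 7, 28169710 to 28179269, plus strand) was low in CPM, with 3.89, 3.33, 3.57 and 3.13 in WT hearts and 6.00, 5.61, 5.13 and 5.39 in mutant hearts. The groups were nevertheless separate, with a log2 fold change of 0.67 ± 0.126 (adjusted p = 0.00409). Nop56, the paralogue of Nop58 (ENSMUSG00000027405, chromosome 2, 130274430 to 130279313, plus strand), was at 17.1, 17.6, 16.5 and 13.8 CPM in WT and 21.3, 23.2, 21.8 and 19.4 CPM in TAZG197V (log2 fold change 0.42 ± 0.0640). The lowest box C/D values of each genotype were those of its number 4 library for Nop58 and Nop56. Windows shared with other genes made up 19.7% of Fbl and 18.6% of Nop56.

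In the box H/ACA class, where Dkc1 (dyskerin) is the pseudouridine synthase and Nhp2, Nop10 and Gar1 are its core partners, Nhp2 stood out in size. Nhp2 (ENSMUSG00000001056, chromosome 11, 51619735 to 51623714, plus strand) was at 10.1, 9.10, 11.0 and 8.84 CPM in WT and 33.7, 36.4, 30.4 and 26.6 CPM in TAZG197V. Even the lowest mutant heart, TAZG197V 4, was far above the highest WT heart. The log2 fold change was 1.69 ± 0.0802, a 3.22-fold difference, with the lowest adjusted p of all members (4.32e-06). Its partners had smaller changes. Gar1 (ENSMUSG00000028010, chromosome 3, 129824912 to 129831396, minus strand) was at 6.22, 5.66, 7.11 and 5.36 CPM in WT and 9.30, 9.01, 9.29 and 9.06 CPM in TAZG197V (log2 fold change 0.58 ± 0.107). Nop10 (ENSMUSG00000027133, chromosome 2, 112261926 to 112263269, plus strand) was at 28.1, 27.7, 30.02 and 20.1 CPM in WT, with WT 4 lowest, and 35.5, 41.2, 35.4 and 32.1 CPM in TAZG197V (0.48 ± 0.0897). Dkc1 went from 21.9 ± 1.78 to 24.9 ± 1.01 CPM (SD, n = 4 each), a log2 fold change of 0.21 ± 0.0621. Its fitted fold of 1.16 was close to the limit for a call, and it was called in 3 of 17 alternative fits, with log2 fold changes of 0.15 to 0.26 and adjusted p of 0.0276 to 0.156. It lost the call when any 1 of WT 2, WT 3, WT 4, TAZG197V 1, TAZG197V 2 or TAZG197V 4 was left out (adjusted p from 0.0587 to 0.129). The 4 partners of this particle thus spanned log2 fold changes from 0.21 to 1.69, and differences between them were not tested.

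Of 16 small subunit factors, 14 were called higher and the other 2, Utp15 and Utp4, had positive log2 fold changes that were not called. The median log2 fold change was 0.48. Rrp12, Ltv1 and Bysl had the largest changes of this group. Rrp12 (ENSMUSG00000035049, chromosome 19, 41862851 to 41896173, minus strand), a HEAT-repeat protein of pre-ribosome export, was at 24.1, 24.8, 34.1 and 22.8 CPM in WT and 70.7, 61.0, 57.2 and 54.4 CPM in TAZG197V. WT 3 was the highest WT library and still lay well below the lowest mutant heart. The log2 fold change was 1.19 ± 0.123 (edgeR adjusted p = 0.000216). Ltv1 (ENSMUSG00000019814, chromosome 10, 13178140 to 13193168, minus strand), which accompanies the small subunit into the cytoplasm, was at 19.1, 17.6, 20.9 and 17.5 CPM in WT and 35.5, 37.5, 32.1 and 29.7 CPM in TAZG197V. This gave a log2 fold change of 0.83 ± 0.0723 (adjusted p = 9.84e-05). Bysl (bystin, ENSMUSG00000023988, chromosome 17, 47599331 to 47611492, minus strand) was at 23.5, 20.5, 26.6 and 23.0 CPM in WT and 39.9, 40.2, 34.2 and 34.3 CPM in TAZG197V (0.64 ± 0.0791 on the log2 scale). All 3 genes were separate between the genotypes.

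The remaining small subunit factors called higher ranged from 0.27 to 0.62 on the log2 scale. Noc4l (0.62) and its partner Nop14 (0.41) rose, as did Rrp9 (0.58), a protein of the snoRNP that directs the first cuts of the precursor. Of the factors that load early onto the nascent precursor, Wdr75 (0.53) and Wdr43 (0.35) were called higher. Utp4 (0.19 ± 0.0672, adjusted p = 0.0538) and Utp15 (0.13 ± 0.0982, adjusted p = 0.309), of the same subcomplex, were not called. Utp4 was called when TAZG197V 3 was left out (adjusted p = 0.049, range 0.0382 to 0.183 over the 17 fits). Utp14a (0.51), Tsr1 (0.48), Utp20 (0.47), Utp18 (0.30) and Utp3 (0.27) were called higher, and so was Nob1 (0.39), the nuclease that makes the final cut of the small subunit RNA. Utp18 lost its call without WT 1, TAZG197V 3, TAZG197V 4 or both number 4 libraries (adjusted p from 0.0507 to 0.0797 there and from 0.017 to 0.0797 over the 17 fits). It was also lost with DESeq2 (0.0769) and without the filter on low counts (0.0536). Tsr1 shared 32.3% of its exon bases with another gene, and reads there may be left uncounted or assigned to either.

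Of 17 large subunit factors, 15 were called higher, with a median log2 fold change of 0.53. Gnl3 (nucleostemin, a nucleolar GTPase, ENSMUSG00000042354, chromosome 14, 31012433 to 31019152, minus strand) was at 20.7, 21.1, 23.2 and 19.0 CPM in WT and 50.2, 48.9, 49.8 and 38.2 CPM in TAZG197V. TAZG197V 4 was lower than the other mutant hearts yet well above all WT hearts. The log2 fold change was 1.147 ± 0.0589 (edgeR adjusted p = 6.99e-06). Its relatives Gnl3l (0.34 ± 0.0570) and Gnl2 (0.35 ± 0.0587) were also called higher. Nop16 (ENSMUSG00000025869, chromosome 13, 54584185 to 54590090, minus strand) was at 10.6, 10.9, 10.5 and 9.78 CPM in WT and 20.6, 21.6, 18.3 and 16.9 CPM in TAZG197V, with a log2 fold change of 0.90 ± 0.0803 (adjusted p = 0.000108).

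Bop1, Pes1 and Wdr12 form the PeBoW complex, which is needed for processing of the large subunit RNA, and all 3 rose. Bop1 (ENSMUSG00000022557, chromosome 15, 76452989 to 76477277, minus strand) was at 23.3, 22.5, 23.7 and 20.2 CPM in WT and 44.0, 46.4, 42.3 and 37.2 CPM in TAZG197V (log2 fold change 0.92 ± 0.0586, edgeR adjusted p = 1.99e-05). Its partners were chosen for their complex after their values were seen. Pes1 was at 20.3, 20.5, 21.2 and 18.8 CPM in WT and 33.4, 34.5, 28.7 and 30.2 CPM in TAZG197V (0.66 ± 0.0767). Wdr12 was at 16.2, 15.9, 17.4 and 14.0 CPM in WT and 28.9, 27.8, 25.5 and 23.8 CPM in TAZG197V (0.74 ± 0.0726). For each of the 3 genes the genotypes were separate. Windows shared with other genes made up 23.3% of Pes1.

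Among the further large subunit factors, Nip7 (0.66), the RNA methyltransferases Nop2 (0.62) and Ftsj3 (0.53), Noc3l (0.56), Rrs1 (0.52), Ebna1bp2 (0.51), Noc2l (0.47) and Brix1 (0.25) were called higher. Brix1 lost its call without WT 1, TAZG197V 1 or TAZG197V 2 (adjusted p from 0.0747 to 0.0865 there and from 0.00853 to 0.0865 over the 17 fits). It was also lost with DESeq2 (0.0664) and with the replicate number as a block (0.0514). Noc2l shared 20.9% of its exon bases with another gene, and 19.2% of its 50-base windows were found elsewhere. The paralogues Rrp1 and Rrp1b were the exceptions. Rrp1 was at 97.3, 94.5, 94.5 and 101 CPM in WT and 101, 102, 99.9 and 108 CPM in TAZG197V, and WT 4 lay among the mutant values. The fitted log2 change was 0.08 ± 0.0473 (adjusted p = 0.209). Rrp1b was at 10.2, 10.03, 9.55 and 11.1 CPM in WT and 11.9, 10.1, 8.55 and 8.80 CPM in TAZG197V, with TAZG197V 1 the highest of all 8 libraries and TAZG197V 3 the lowest. Its log2 fold change of -0.07 ± 0.126 had an adjusted p of 0.708, and it turned to 0.0242 without TAZG197V 4.

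Per kilobase of merged exon, the scale on which genes can be compared with each other, the median member stood at 6.10 CPM per kb in WT and 8.74 in TAZG197V. Rrp1 (28.98), Ncl (23.9), Nop10 (23.9) and Npm1 (17.9) had the highest levels in WT. Nhp2 moved from rank 12 of the 50 in WT to rank 5 in TAZG197V, Rrp12 from 26 to 13, and Myc from 47 to 27. Ubtf moved from rank 8 to 20. Merged exons include retained introns of minor transcripts, so these levels understate genes with many such transcripts.

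The rise was not limited to the 50 members. Of 114 other genes of the pathway 113 were tested, 68 were called higher and 0 lower (1 was lower at an unadjusted edgeR p under 0.05, and DESeq2 called 64 higher and 0 lower), which is 60.2% of those tested and compares with 88% of the members. Their median log2 fold change was 0.36 and their summed level went from 2034 ± 68.5 to 2553 ± 136.8 CPM. Counts by step were 5 of 10 for other Pol I and promoter factor subunits, 19 of 37 for other small subunit factors, 27 of 39 for other large subunit factors, 6 of 9 for snoRNP assembly and 11 of 18 for the exosome and RNase MRP, which trim and cut the precursor. The medians of these lists lay between 0.25 and 0.42. Dhx37, the helicase that Utp14a activates, went from 18.2 ± 1.67 to 40.2 ± 6.39 CPM (log2 fold change 1.104), and Wdr46 rose by 0.90 on the log2 scale. Rpf2, which helps to place a small ribosomal RNA in the large subunit, went from 8.87 ± 0.976 to 19.1 ± 2.47 CPM (1.13), followed by Mrto4 (0.83). Shq1, the chaperone of dyskerin, went from 3.81 ± 0.536 to 7.29 ± 0.982 CPM (0.93), and Pih1d1, of the snoRNP assembly machinery, rose by 0.55. Polr1e (0.84), Taf1d (0.53), Rpp40 (0.75) and Exosc2 (0.74) led the other lists. In each of these 10 genes the genotypes did not overlap.

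Listed genes of the wider Myc network, which include Mycn, Mycl, Mlx, Mlxip and Mlxipl, were not called higher. Of 12 genes of the Myc network 0 were called higher and 3 lower, where 15.1% of all genes tested were called lower. Only 10 of the 12 reached the mean count that a call needs, and the median log2 fold change was -0.04. DESeq2 gave the same counts, and at an unadjusted edgeR p under 0.05 there were 1 positive and 3 negative changes. Mlxipl, the glucose-responsive factor ChREBP, was at 26.6, 24.8, 32.5 and 25.5 CPM in WT and 10.7, 8.04, 10.3 and 10.6 CPM in TAZG197V. The genotypes were far apart, with a log2 fold change of -1.48 ± 0.127 (SE, edgeR adjusted p = 8.97e-05). Mlxip, its paralogue MondoA, fell from 68.4 ± 9.64 to 54.3 ± 2.52 CPM (-0.35, adjusted p = 0.00909), and Max, the dimer partner of Myc, had a log2 fold change of -0.26 (adjusted p = 0.0405). Max, named after its values were seen, lost its call without WT 1, WT 4, any 1 of the TAZG197V libraries or both number 4 libraries. It also lost it with sequencing lane in place of surrogate variables (0.181) or with neither (0.158), and its adjusted p ranged from 0.0267 to 0.181 over the 17 alternative fits.

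**Figure D4:**
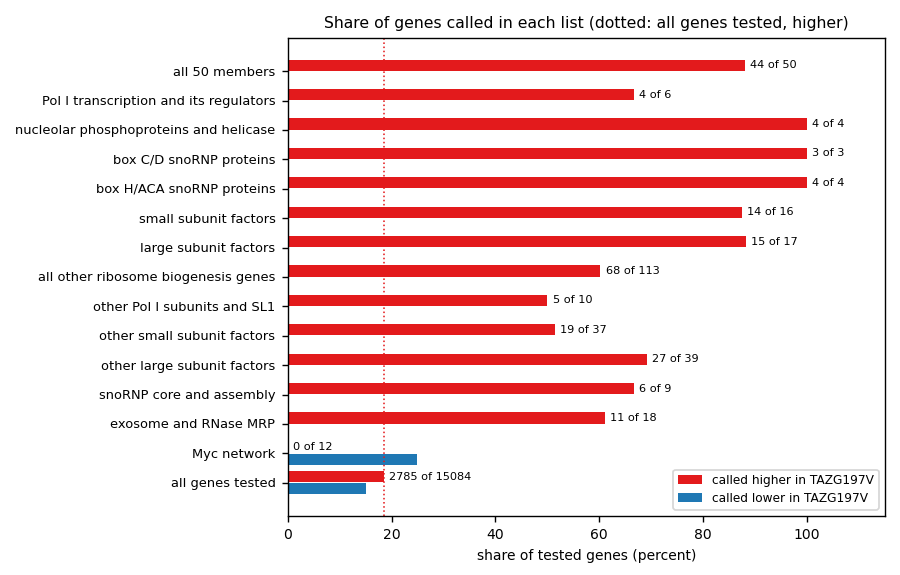
Share of tested genes called higher (red) and lower (blue) in TAZG197V for the 50 members, their 6 role groups, the other lists of the pathway, the Myc network and all genes tested (x axis, percent, from 0). All lists of the pathway exceed the dotted 18.5% of all genes, and the Myc network has 0 of 12 called higher.

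Promoters were examined for what the members share in sequence, from RefSeq starts on GRCm38.p6 with 250 bases before and 50 after the start. A promoter was found for 42 of 50 members. None was found for Bop1, Fbl, Gnl2, Gnl3l, Myc, Npm1, Rrp12 and Rrs1. All of these were called higher, and Myc had the largest change of the members, so the motif counts leave them out. The E-box CACGTG, which Myc and related factors bind and which reads the same on both strands, was present in 10 of 42 members (23.8%). It was present in 8.09% of all 27025 genes of the promoter table, 11.5% of the genes tested and 15.8% of the other ribosome biogenesis genes. The motif TGATGNAA, read on both strands and bound by stress-response factors of the ATF4 type, was present in 1 member (Nop14, 2.38%) and in 2.82% of the genes tested. The E-box windows of 4 members are shown, with the motif in capitals, because they show where it lies relative to the start. The base given is the first base of the motif, with the start counted as 0. Ltv1 (position 28, chr10:13193092-13193121, minus strand) and Mybbp1a (position 40, chr11:72441347-72441376, plus strand) are described above by the rule for named genes. Pes1 (position 2, chr11:3963965-3963994, plus strand) and Nop2 (position -60, chr6:125131811-125131840, plus strand) were chosen after their values were seen.
Ltv1: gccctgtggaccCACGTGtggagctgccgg
Mybbp1a: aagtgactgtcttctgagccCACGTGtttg
Pes1: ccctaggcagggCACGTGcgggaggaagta
Nop2: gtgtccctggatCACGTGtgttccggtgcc

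Members with an E-box had a median log2 fold change of 0.41, with 9 of 10 called higher, and members without it 0.51, with 27 of 32 called higher. The difference between these sets, and the part of Myc in the rise of the members, were not tested. Ltv1 and Mybbp1a held an E-box, while Nhp2 and Nop58, also described above, held neither motif. The bases of Nhp2 and Nop58 from 250 to 51 before the start, which overlap no annotated exon, are shown as examples of members without a motif (Nhp2 chr11:51619523-51619722 and Nop58 chr1:59684756-59684955, both plus strand).
Nhp2: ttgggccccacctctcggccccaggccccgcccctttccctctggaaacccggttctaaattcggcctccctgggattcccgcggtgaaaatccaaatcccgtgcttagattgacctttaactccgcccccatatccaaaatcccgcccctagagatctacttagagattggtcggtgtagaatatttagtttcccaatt
Nop58: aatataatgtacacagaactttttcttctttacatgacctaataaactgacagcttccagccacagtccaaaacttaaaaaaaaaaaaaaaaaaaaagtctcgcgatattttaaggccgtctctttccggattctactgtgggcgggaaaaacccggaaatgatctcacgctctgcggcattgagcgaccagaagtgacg

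Several members also carry snoRNA genes inside them on the same strand. Such snoRNAs can be released from introns when the host is transcribed, and whether each lies in an intron was not checked here. This held for 7 of 50 members (14.0%), against 3 of 114 other ribosome biogenesis genes (2.63%) and 221 of 13431 protein-coding genes tested (1.65%). The 7 hosts were Nop56, with 5 snoRNA genes that include Snord57 and Snord110, Nop58, with 4 that include Snord11 and Snord70, Ncl (Snora75, Snord82), Gnl3 (Snord19, Snord69), Wdr43 (Snord53, Snord92), Tsr1 (Snord91a) and Dkc1. All 7 hosts were called higher, where 88% of all 50 members were, so the hosts were not set apart from the other members. Of the 221 hosts among protein-coding genes, which include these 7, 86 were called higher and 25 lower. The counts do not measure the snoRNAs themselves.

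Markers of other cell types were read beside these results. Those of dividing cells (Mki67, Top2a, Ccnb1, Birc5, Cdk1) summed to 11.7 to 16.1 CPM in WT and 11.4 to 14.5 CPM in TAZG197V, and 0 of the 4 tested were called, of which only 2 reached the mean count that a call needs. By edgeR 1 of the 4 was lower at an unadjusted p under 0.05, and DESeq2 called 0. Fibroblast markers summed to 879.1 to 1463 CPM in WT and 604.9 to 835.9 CPM in TAZG197V, with 3 of 5 called lower. Smooth muscle and pericyte markers summed to 635.7 to 854.9 and 533.8 to 600.6 CPM, with 4 of 4 called lower by edgeR and 3 by DESeq2. Endothelial markers had 2 of 5 called lower by edgeR and 4 by DESeq2, and ventricular muscle markers 2 of 6 by edgeR and 3 by DESeq2. At an unadjusted edgeR p under 0.05 these were 4 and 3. Macrophage and leukocyte markers summed to 191.8 to 339.2 and 180.7 to 283.9 CPM with 0 of 5 called by edgeR or DESeq2 and 1 lower at an unadjusted p under 0.05. The 4 neutrophil markers summed to 48.8 CPM in WT 4, where S100a8 and S100a9 were at 17.3 and 31.4 CPM, against 0.304 to 2.87 CPM in WT 1 to 3 and 0.257 to 2.90 CPM in TAZG197V. Ly6g and Mpo, the other two of the list, were at or near 0 in all libraries. Of the brain markers tested, 1 of 5 was called higher (Slc1a2) and 2 lower (Camk2a and Mbp). Red cell markers had 6 of 6, atrial muscle markers 2 of 3 and adipocyte markers 1 of 1 of those tested called lower. The genotypes overlapped for each of these genes, and the WT sums rested largely on 1 library. Red cell markers summed to 55070 CPM in WT 4 and 346.2 to 1065 CPM in WT 1 to 3. The TAZG197V sums were 227.3 to 571.1 CPM. In WT 2, atrial markers summed to 1057 CPM and adipocyte markers to 17.4 CPM. In the other WT libraries these sums did not exceed the highest TAZG197V sums (130.0 and 3.04 CPM). The remaining atrial marker tested, Nppa, was not called (log2 fold change 0.72). Among the marker lists, Slc1a2 was the only gene called higher. The part of cell composition in the rise of the members was not tested.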

How the data were processed

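Total RNA from a piece of heart was sequenced for 4 WT and 4 TAZG197V mice. The deposited values are counts: per the labels, the authors demultiplexed reads with bcl2fastq 2.20.0, checked them with FastQC 0.11.9, aligned them to mm10 with STAR 2.7.3a and counted reads over exons per gene with featureCounts (Subread 2.0.0), without normalization. Annotation release, strand setting and treatment of multiply aligned reads are not given in the sources used here, so overlapping genes and near-identical copies are uncertain. Spike-in rows held 0 counts and were left out. Symbols and positions came from GENCODE on GRCm38, the assembly of mm10.

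The count model was edgeR 4.0.16 (R 4.3.3), after filterByExpr had left 15084 genes and with TMM scaling. The study corrected with svaseq and tested with DESeq2, which is an alternative here. Genotype was tested two-sided with the quasi-likelihood F-test, with 2 surrogate variables from svaseq (sva 3.50.0, seed 1) as covariates, and p-values were adjusted by Benjamini-Hochberg across the whole table of genes. A call needed an adjusted p under 0.05, a larger-to-smaller fitted ratio more than 15% above 1 (the study's limit) and a mean size-factor-scaled count of at least 50. The standard error (SE) of a log2 fold change is its size over the square root of F. CPM were computed here from the counts, with SD over 4 mice. Nothing in the labels says that animals were pooled, and p-values measure the spread between these 8 libraries. Within a genotype the chi-square statistic between libraries was at least 10.2 per gene (summed count of 10 or more), so no library repeated another. Total counts were 23055689 to 36301031. The median counting error of a member was 4.08% of its level in WT and 3.23% in TAZG197V, against a median SD between mice of 6.96% and 7.48%, and it was as large as that SD or larger in 6 members in WT and 5 in TAZG197V. Reads carried no molecular identifiers.

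Values in every library are given for Myc and for up to 3 called members per role group with the largest change, and of each further list up to 2 called genes per direction are named (Max, the third of the Myc network, was added after its values were seen). Other per-library values were chosen after they were seen. The members, lists and tests were chosen with earlier results of these data known, so no test over a list was run. Symbols of 4 of 130 pathway genes (Polr1f, Polr1g, Polr1h and Nopchap1) had no match and are not analysed here. The procedure was tested on counts simulated from the main fit with its surrogate variables, and the outcome is not given here. On counts simulated without such hidden structure, a surrogate variable can align with genotype, which loses power. Alternatives were DESeq2 1.42.0, other covariates (none, 1 surrogate variable, lane, replicate number), other scaling, no low-count filter, other limits for a call, and omission of each library and of both number 4 libraries.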

Additional observations from a re-analysis of the deposited data

Results flagged for a closer look

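In groups of 4 libraries, 140 sets of values (members, summed role groups and summed marker lists in each genotype) were examined for 1 library far from the other 3, by the gap to the nearest library over the whole range (Dixon's test at the 95% level). Chance gives about 7 such sets, and 15 were found. Of the 100 sets of single members 4 were found, where chance gives about 5, and of the 40 summed lists 11, where it gives about 2. Among members, Rrp9 was low in WT 4 (12.7 against 16.2 to 16.8 CPM, gap share 0.849), Utp20 was low in WT 2 (25.2 against 26.7 to 26.8 CPM, 0.936), and Noc2l and Gnl3 were low in TAZG197V 4 (40.3 against 44.0 to 44.5 CPM, 0.892, and 38.2 against 48.9 to 50.2 CPM, 0.89). The summed level of all members was low in WT 4 (1477 against 1543 to 1554 CPM, 0.857), and that of the box C/D proteins was low in TAZG197V 4 (55.2 against 63.7 to 65.1 CPM, 0.853).

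The other 9 sets were marker lists. Atrial muscle markers were high in WT 2 (1057 CPM, 0.894) and in TAZG197V 2 (130.0 CPM, 0.875). Fibroblast markers were high in WT 2 (1463 CPM, 0.906), neutrophil markers in WT 4 (48.8 CPM, 0.947) and red cell markers in WT 4 (55070 CPM, 0.987). Adipocyte markers were high in WT 2 (17.4 CPM, 0.848) and TAZG197V 4 (3.04 CPM, 0.96), and brain markers in WT 4 (189.6 CPM, 0.949) and TAZG197V 4 (300.5 CPM, 0.943). Their part in the levels of the members was not tested.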

How the results depend on the processing

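Of the 44 members called higher, 39 were called in all 17 alternative fits, and all 44 had a positive change in each of them. The exceptions were Polr1a, Rrn3, Dkc1, Utp18 and Brix1. Members called higher numbered 40 to 43 when 1 library was left out, 42 without both number 4 libraries, 41 with DESeq2 and 42 without surrogate variables. The other ribosome biogenesis genes called higher numbered 59 to 69 when 1 library was left out. No alternative gave a member called lower, and the median log2 fold change of the members ranged from 0.48 to 0.53. A fold limit of 1.5 left 18 members and 18 of the other ribosome biogenesis genes, because fewer genes reach that size, and it reduced the calls over all genes from 5060 to 1843. Rrp1b, not called at -0.0652, ranged from -0.165 without TAZG197V replicate 1 to 0.0242 without TAZG197V replicate 4, and was 0.0318 without both number 4 libraries. The cause was not tested.

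Deviations of same-numbered libraries correlated at 0.277, 0.0436, 0.28 and 0.416, so the numbers were not taken as pairs. With the replicate number as a block, 40 members and 63 other ribosome biogenesis genes were called higher, Polr1a, Rrn3, Dkc1 and Brix1 were not (adjusted p = 0.0501, 0.0816, 0.0649 and 0.0514), the medians were 0.49 and 0.35, and not every library correlated best with its own number. Members had 70 to 15126 counts per library, and the effect of depth on the calls was not tested. The number of mice (4 per genotype) and the use of 1 piece of each heart limit the precision.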
